A study of Mus musculus with 4 samples.

Results

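Interleukins are the secreted messengers of immune and stromal cells, and each is read by a receptor of 1 or more chains on the responding cell. The mouse genes named Il followed by a number, 81 genes on the array, were described in left ventricles of KDM5B-knockout (KO) and wild-type (WT) mice after myocardial infarction (MI). They were taken as every non-control probe whose gene name starts that way, which gave 124 of the 41174 probes, and the brightest probe, by mean log2 processed signal over the 4 arrays, stands for its gene. By role, the 81 genes hold 36 ligands, 37 receptor chains, 7 antagonists or decoys and 1 enzyme, Il4i1, and 31 of them have 2 or more probes.

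Total RNA came from the left ventricle of mice labelled male, 8 to 10 weeks old, at 7 days after the left anterior descending coronary artery was tied off. The WT group had 2 arrays, titled WT 2 and WT 3, and the KO group had 2, titled KO 2 and KO 3. Both groups had the infarction and, per the study's methods, a C57BL/6 background. The KO allele of Kdm5b, made with CRISPR/Cas9, lacks the catalytic JmjC domain and is out of frame past the deletion, and no restriction to a cell type is stated. The labels do not say how many mice each sample holds, so any p-value measures only the spread between these samples. No uninjured heart was among the samples, so a level here cannot be set against a resting heart.

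In the infarcted heart, IL-1β and IL-18 are released by dying cells and inflammatory leukocytes and drive the early inflammation, and IL-1 receptor antagonist and the decoy receptor IL-1R2 limit it. IL-33 is stored in the nuclei of stromal cells and signals through ST2, the product of Il1rl1. IL-6 and IL-11 signal through the shared chain gp130, encoded by Il6st, and the cytokines IL-2, IL-4, IL-7, IL-9, IL-15 and IL-21 share the common gamma chain, encoded by Il2rg.

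The array reads each gene through probes of 60 bases, and the first 30 bases (5′ to 3′) are shown for the probes on which the differences described here were read, with 2 of the 3 probes of Il1rl1 because they are annotated to different transcripts. On build mm9, these probes lie at chr2:129190347-129190406 (Il1b), chr15:78311109-78311168 (Il2rb), chr1:40180014-40180073 (Il1r2), chr8:73345189-73345248 (Il12rb1), chr19:30034990-30035049 (Il33), chr1:132778780-132778839 (Il24), chr6:113420147-113420206 (Il17re), chr1:40521952-40522011 (Il1rl1, membrane form) and chr1:40504769-40504828 (Il1rl1, soluble form). Those of Il1b, Il2rb and Il24 are on the minus strand and the others on the plus strand. Their place within exons was not determined. The form given for each Il1rl1 probe is that of its annotated transcript, and whether a probe reads that form alone was not determined.
Il1b: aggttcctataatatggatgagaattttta
Il2rb: gtctattctggggtgggtttttctgtgaag
Il1r2: ttgatccagtcacaagggaggatctgcata
Il12rb1: tagagcgtcataaattaggttacctaaaaa
Il33: tcgtacggctgtaacaggtataattgtttc
Il24: aagtagatttgcatatttattacagcccta
Il17re: gtgtagcaacagcaggaactccagaatgag
Il1rl1, membrane form: tgaccttatttgcttaccagttacaggtaa
Il1rl1, soluble form: ctctgtaacaggatcttttgtctagatttc

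Each value is a log2 signal from which the log2 of its array's 75th percentile was subtracted, and differences are KO minus WT on that scale. Between 68.15% and 72.04% of probes per array were well above background, none was saturated, and the 75th percentile of the signal was lowest in KO 2, at 607.6 against 876.3 to 976.1 on the others. The 8 cardiomyocyte markers, among them Myh6 and Tnnt2, were well above background on every array. Kdm5b, the targeted gene, read lower in KO with both of its probes, without overlap between the groups, with differences of -0.996 ± 0.40 (SE) and -1.19 ± 0.45, and stayed well above background in KO. Whether these probes lie inside the deleted stretch was not determined. Atf3, a transcription factor gene that the study follows, read 1.33 ± 0.45 higher in KO. KO 2 exceeded WT 2 by 1.98 and KO 3 exceeded WT 3 by 0.69. The limma adjusted p was 0.9999 for Atf3 and for both Kdm5b probes. The number in the sample titles also divides the arrays: Xist, made from the inactive X chromosome, was well above background in WT 2 and KO 2, and the Y-linked Ddx3y in WT 3 and KO 3, although all 4 samples are labelled male. This split is balanced over genotype, and the 2 arrays of a group therefore do not hold RNA of the same mouse alone. The WT arrays took positions 1 and 2 of the slide and the KO arrays positions 3 and 4, so position and genotype cannot be told apart. KO 2 stood apart from the other arrays in the interleukin genes, as described next, so counts by size and by direction are also given without it.

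Of the 81 genes, 47 (58.02%) were well above background on all 4 arrays, 9 on 1 to 3 arrays and 25 on none. Over all genes with a RefSeq symbol the share on all 4 arrays was 71.73% (14381 of 20049). By role, this held for 28 of 37 receptor chains, 15 of 36 ligands, 3 of 7 antagonists or decoys and the enzyme. The IL-6 and IL-11 group was measured whole (5 of 5), and the IL-1 family for 12 of 20, the common gamma chain family for 9 of 14, the IL-17 family for 6 of 11, the IL-10 family for 5 of 11, the IL-13, IL-5, IL-3 and IL-31 group for 4 of 9 and the IL-12 family for 3 of 8. Among the 25 not well above background on any array were Il1a, Il10, Il4, Il17a, Il17f, Il22 and Il23a, ligands made by activated T cells, innate lymphocytes or macrophages. Il10, the anti-inflammatory ligand that macrophages make after infarction, read -6.33 in WT 2, -6.65 in WT 3, -6.40 in KO 2 and -5.60 in KO 3, and since none of these was above background they give no difference. The number of interleukin genes well above background was 53 in WT 2, 52 in WT 3, 47 in KO 2 and 51 in KO 3.

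**Figure D1:**
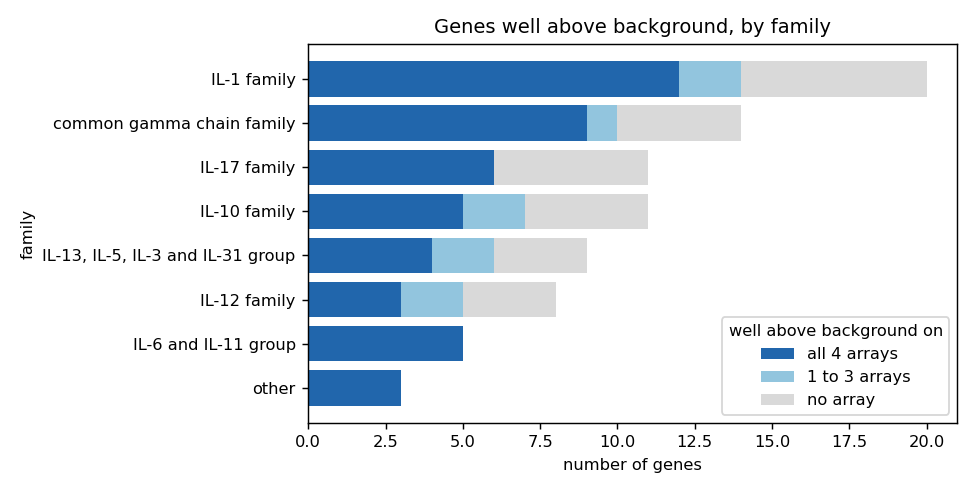
Number of interleukin and interleukin receptor genes by family (horizontal axis, genes) that were well above background on all 4 arrays (dark blue), on 1 to 3 arrays (light blue) or on none (grey). All 5 genes of the IL-6 and IL-11 group were measured on every array, against 3 of 8 in the IL-12 family.

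To ask which of these genes differed between KO and WT hearts, the test took in probes well above background in a whole group, WT or KO or both, which left 50 of the 81 genes. By limma, 0 of the 50 were called (adjusted p under 0.05, more than 2-fold), and the lowest adjusted p was 0.9999. Over all probes tested the share called was likewise 0% (0 of 28304). At an unadjusted p under 0.05, limma gave 0 of the 50 genes against 1.40% of all tested genes. The methods' t-test called 0 of the 50 both with unadjusted p and after Benjamini-Hochberg adjustment. An exact permutation test of 2 arrays against 2 cannot give a two-sided p under 0.333. The values that follow are therefore a description of the 4 arrays.

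By size, 7 of the 50 genes read over 2-fold lower in KO, against 2.34% of all tested genes, and 0 read over 2-fold higher, against 1.12%. The 7 were Il2rb, Il1r2, Il1b, Il18r1, Il12rb1, Il33 and Il2ra, of which Il2ra was not above background in KO. For 13 genes (26%) neither KO array reached the lower WT array, against 8.88% of all tested genes, and for 4 (8%) both KO arrays exceeded the higher WT array, against 13.3%. In all, 33 of the 50 genes read lower and 17 higher, and the median difference was -0.35, against 0.04 over all tested genes. Genes measured only in one group can pass the filter through their high side, so the 47 genes well above background on all 4 arrays were also counted alone. Of these, 6 (12.77%) read over 2-fold lower and 0 higher, 11 (23.4%) lay below and 4 (8.51%) above without overlap, and the median was -0.34. For all 14381 genes so measured, the shares were 1.36%, 0.74%, 8.35% and 13.2%, and the median was 0.04.

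The counts rest on the array KO 2. Without it, 2 of the 50 genes read over 2-fold lower, Il1b and Il2ra, the latter by a KO signal that was not above background. A further 2 read over 2-fold higher (Il7r and Il17re), 23 read lower, and the median difference was 0.06. Of the 47 genes well above background on all 4 arrays, 1 then read over 2-fold lower, Il1b, and 2 higher. Taken alone, KO 3 read under the lower WT array in 16 of the 50 genes and over the higher one in 21. Without KO 3, 20 read over 2-fold lower and 4 over 2-fold higher, and the median was -0.66. The median level of the 50 genes was -1.26 in WT 2, -1.39 in WT 3 and -1.01 in KO 3 but -2.23 in KO 2. With normexp background correction, which pulls dim signals together, 3 genes read over 2-fold lower, 0 higher, and the median was -0.13. In bulk tissue, fewer cells of a kind and less RNA per cell cannot be told apart.

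**Figure D2:**
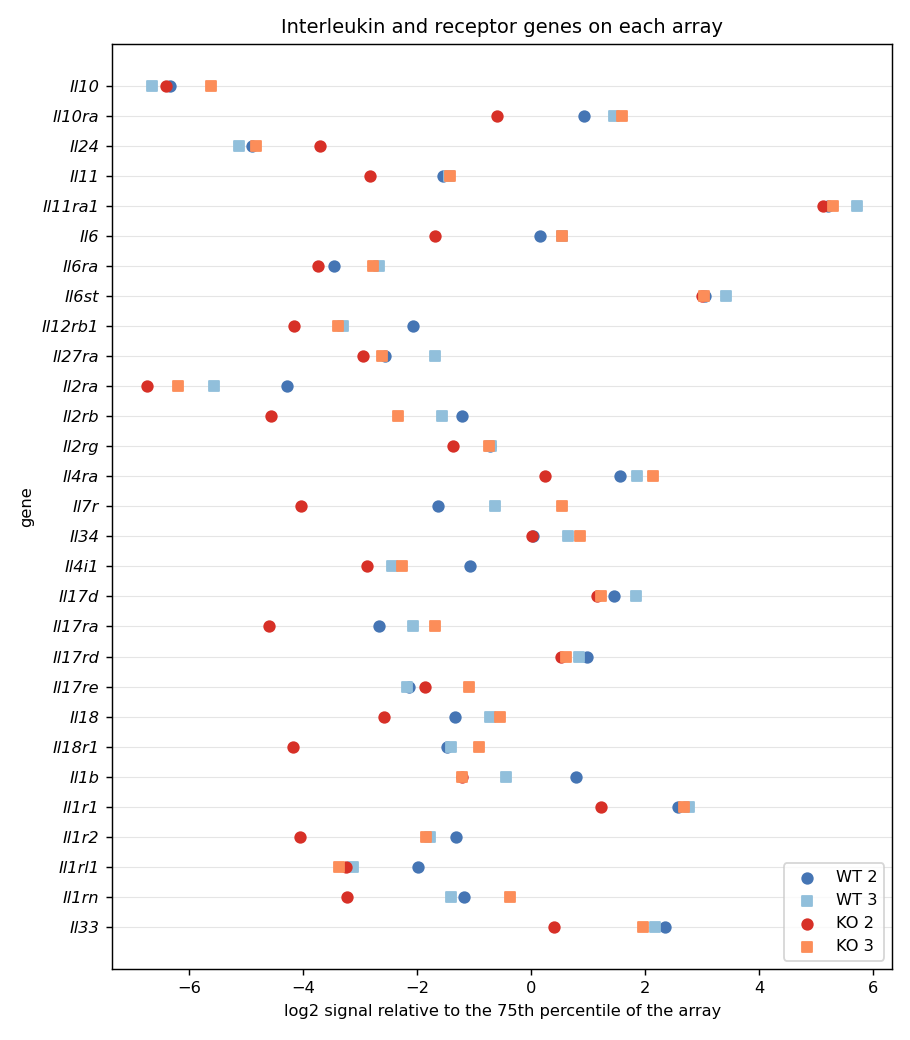
Signal of the 29 named interleukin and receptor genes on each array (horizontal axis, log2 above or below the array's 75th percentile; WT blue, KO red, circles number 2, squares number 3; 1 point per array, so no error bar). For Il2rb, Il1r2, Il18r1 and Il7r the KO 2 point lies far to the left of the other 3 arrays, whereas for Il1b both KO points lie together at about -1.2. Levels of different genes come from different probes and are not comparable.

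In the IL-1 family 4 of the 13 tested genes read over 2-fold lower and 11 read lower in KO (84.62%, against 44.92% of all tested genes). Without KO 2, 1 of the 13 read over 2-fold lower, Il1b, and 7 read lower. Among its ligands, Il1b, the main inflammatory IL-1, read 0.79 in WT 2, -0.43 in WT 3, -1.22 in KO 2 and -1.20 in KO 3. Neither KO array reached the lower WT array, and the KO arrays differed from each other by far less than the WT arrays did. The means were 0.18 ± 0.86 (SD, n = 2) for WT and -1.21 ± 0.01 (SD, n = 2) for KO, a difference of -1.39 ± 0.49 (SE) or 2.62-fold, with a limma adjusted p of 0.9999. Without WT 2, the array with the highest Il1b, the difference was -0.78. Il33, the nuclear alarmin, read 2.35 and 2.18 on the WT arrays, 0.40 in KO 2 and 1.97 in KO 3. The groups did not overlap, but KO 3 lay near WT, and the mean difference of -1.08 ± 0.61 (SE) was -0.30 without KO 2. Il18, an inflammasome-processed ligand like IL-1β, read -1.33 in WT 2, -0.72 in WT 3, -2.57 in KO 2 and -0.54 in KO 3, so its KO arrays spanned the WT arrays.

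The receptor and inhibitor genes of the family read lowest in KO 2, except Il1rl1 and Il18bp. Il1r2, the decoy receptor that binds IL-1 without signalling and is abundant on neutrophils, read -1.32 in WT 2, -1.77 in WT 3, -4.06 in KO 2 and -1.85 in KO 3. The groups did not overlap, by a margin of less than 0.1 in KO 3. Its difference was -1.41 ± 0.85 (SE), -0.76 with normexp background correction and -0.30 without KO 2. Il18r1, the ligand-binding chain of the IL-18 receptor, read -1.48 and -1.40 on the WT arrays, -4.17 in KO 2 and -0.91 in KO 3, so its groups overlapped, with KO 3 the highest of all. The partner chain Il18rap was well above background on 3 arrays and read -4.64, -5.00, -5.82 and -5.10 in WT 2, WT 3, KO 2 and KO 3. For Il1r1, the signalling receptor of IL-1, the levels were 2.57, 2.77, 1.22 and 2.69 in the same order, again with KO 2 alone lower. Il1rn, the secreted receptor antagonist, read -1.17 and -1.40 on the WT arrays, -3.23 in KO 2 and -0.37 in KO 3, the lowest and the highest level of the 4 both being KO. Il1rl1, the IL-33 receptor, read -1.98 in WT 2, -3.12 in WT 3, -3.24 in KO 2 and -3.37 in KO 3. The groups did not overlap, yet WT 3 lay closer to KO than to WT 2, and the difference was -0.76 ± 0.47 (SE), but -0.23 with normexp and -0.19 without WT 2. The 4 tested genes of the family not given by values were Il1f8, Il1rap, Il1rl2 and the IL-18 binding protein gene Il18bp, whose differences lay between -0.52 and 0.43.

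The common gamma chain family held the gene with the largest difference among the 50. Il2rb, the chain that the IL-2 and IL-15 receptors share on T and natural killer cells, read -1.21 in WT 2, -1.56 in WT 3, -4.55 in KO 2 and -2.34 in KO 3. Both KO levels were under the WT levels, KO 2 by more than KO 3. The means were -1.39 ± 0.25 (SD, n = 2) for WT and -3.45 ± 1.57 (SD, n = 2) for KO, which differed by -2.06 ± 0.84 (SE) or 4.16-fold, with a limma adjusted p of 0.9999. The difference was -1.16 with normexp and -0.95 without KO 2. Il2ra, the high-affinity chain found on regulatory and activated T cells, was well above background on both WT arrays, at -4.29 and -5.57, and on neither KO array, at -6.73 and -6.19. Il2ra was counted above by its measured difference of -1.53, and a second ratio of WT to KO was 1.62. This ratio sets the WT mean against, on each KO array, the higher of its own signal and the lowest signal well above background. With normexp the sign of the Il2ra difference turned, to 0.04, so the ratio is not a lower bound. The other Il2ra probes were too dim for the test. Of these, 1 was well above background in WT 2 alone, at -5.23, with -8.23 in WT 3, -7.71 in KO 2 and -8.14 in KO 3. The rest were well above background on no array. Il2rg, the common chain itself, read -0.71 and -0.70 on the WT arrays, -1.36 in KO 2 and -0.74 in KO 3, a difference of -0.34 ± 0.30 (SE) that was -0.0283 without KO 2. Il7r, the IL-7 receptor of lymphocytes, had the widest spread within KO, at -4.03 in KO 2 and 0.55 in KO 3 against -1.63 in WT 2 and -0.62 in WT 3. Its mean difference of -0.61 ± 1.73 (SE) thus joins the lowest and the highest of the 4 levels. Il4ra, the receptor chain for IL-4 and IL-13, read 1.56 and 1.86 on the WT arrays, 0.25 in KO 2 and 2.13 in KO 3, in the same order as Il7r. The remaining tested genes, Il2, Il7, Il15, Il15ra and Il21r, differed by between -0.46 and 0.48.

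All 5 genes of the IL-6 and IL-11 group read lower in KO on average, none over 2-fold. Il6, an acute inflammatory ligand, read 0.15 in WT 2, 0.54 in WT 3, -1.69 in KO 2 and 0.54 in KO 3, so WT 3 and KO 3 were level and KO 2 minus WT 2 was -1.84. Il11, a ligand made by stromal cells and linked to cardiac fibrosis, read -1.55, -1.44, -2.83 and -1.42 in WT 2, WT 3, KO 2 and KO 3, with KO 2 again alone. The 3 receptor chains differed by less, between -0.25 and -0.19. Il6st, which encodes gp130, read 3.04 in WT 2, 3.43 in WT 3, 2.995 in KO 2 and 3.03 in KO 3, and its groups were separate by less than 0.1. Il11ra1, the IL-11 receptor, read 5.21, 5.72, 5.12 and 5.30 in the same order and overlapped, while its second probe read 3.72, 4.07, 3.58 and 3.69 and did not. Its difference of -0.25 was -0.47 after quantile normalization and on the authors' values. For Il6ra, the IL-6 receptor, the levels were -3.46, -2.67, -3.74 and -2.77, where each number's 2 arrays lay near each other, and its difference of -0.19 became 0.08 with normexp.

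In the IL-12 and IL-10 families 8 genes were well above background on all arrays, and their differences had both signs. Il12rb1, the chain that the IL-12 and IL-23 receptors share, read -2.07 in WT 2, -3.30 in WT 3, -4.16 in KO 2 and -3.39 in KO 3. The groups did not overlap, WT 3 and KO 3 lay within 0.1 of each other, and the difference was -1.09 ± 0.57 (SE). It was -0.43 with normexp and -0.47 without WT 2. Il27ra, the IL-27 receptor, read -2.57, -1.68, -2.95 and -2.62 in WT 2, WT 3, KO 2 and KO 3, separate by less than 0.1, and its larger difference was at number 3. The difference was -0.34 with normexp and -0.22 without WT 3. Il24, a ligand of the IL-10 family, read -4.89 and -5.11 on the WT arrays, -3.70 in KO 2 and -4.82 in KO 3, higher on both KO arrays by 0.74 ± 0.47 (SE), and by 0.18 without KO 2. These signals were dim, and the other Il24 probe was well above background on no array. Il10ra, the ligand-binding chain of the IL-10 receptor, read 0.93 in WT 2, 1.45 in WT 3, -0.59 in KO 2 and 1.60 in KO 3. Its ligand was not above background on any array, so the receptor alone was measured.

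Of the 6 tested genes of the IL-17 family, 3 read lower and 3 higher. Il17d, a family ligand found in non-immune tissue, read 1.45 in WT 2, 1.83 in WT 3, 1.15 in KO 2 and 1.24 in KO 3, a difference of -0.45 ± 0.25 (SE) with the groups apart. Il17rd, a receptor also known as a brake on growth factor signalling, read 0.99, 0.84, 0.52 and 0.62 in that order, but its other 2 tested probes read higher in KO, and the mean of all 3 gave a difference of 0.21. Il17re, the IL-17C receptor chain, read -2.14 and -2.17 on the WT arrays, -1.86 in KO 2 and -1.08 in KO 3. It was higher on both KO arrays, by 0.69 ± 0.35 (SE), more so at number 3, and by 0.30 without KO 3. Il17ra, the chain common to the IL-17 receptors, read -2.67 in WT 2, -2.07 in WT 3, -4.60 in KO 2 and -1.69 in KO 3, where the KO arrays enclosed the WT arrays. Outside these families, Il34, a ligand of the macrophage growth factor receptor CSF1R, read 0.03 and 0.66 on the WT arrays and 0.02 and 0.86 on the KO arrays, where each number had its own level in both genotypes. Il4i1, a secreted amino acid oxidase of macrophages and dendritic cells, read -1.08 in WT 2, -2.44 in WT 3, -2.88 in KO 2 and -2.26 in KO 3, so that only WT 2 stood apart.

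Well above background in 1 group alone were 6 genes, of which only Il2ra met the condition for testing. Il12b, the subunit shared by IL-12 and IL-23, was above background in WT 2 alone, at -3.48 against -6.07 in WT 3. Formed as for Il2ra, its ratio of WT to KO was 1.81. Il13ra2, the IL-13 decoy, was above background in WT 3 alone, with a ratio of 1.43. Its levels were -5.19 in WT 2, -5.03 in WT 3, -7.54 in KO 2 and -7.68 in KO 3. The measured difference was thus -2.35 at number 2 and -2.65 at number 3, similar at both. With only WT 3 well above background, Il13ra2 was not tested and the size of its difference is uncertain. Il5, the eosinophil ligand, was so in WT 2 alone, at -2.92, with a ratio of 1.10. Its other levels were -8.06 in WT 3, -7.58 in KO 2 and -7.91 in KO 3, so WT 3 read lowest. Il12a was above background in KO 3 alone, with a ratio of KO to WT of 1.07, and for Il1f6, above background on 1 WT array, no ratio could be given. Each of these ratios rests on a group in which only 1 array measured the gene. The mean of that group takes in a signal not well above background, so the ratio is not a lower bound. Il2ra was measured on both WT arrays, by its brightest probe, but normexp turned the sign of its difference. Its ratio is therefore not a lower bound either.

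Within the array numbers, where each comparison has 1 array per genotype and no replicate, the counts were as follows. At number 2, 21 of the 50 genes read over 2-fold lower in KO 2 than in WT 2, against 9.38% of all tested genes, and 2 over 2-fold higher, against 6.94%. At number 3, 0 read over 2-fold lower in KO 3 than in WT 3, against 1.77%, and 3 over 2-fold higher, against 2.56%. The 3 were Il7r, Il17re and Il1rn. Among the 21, Il18rap, Il20ra and Il2ra were not well above background in KO 2. Of the 47 genes well above background on all 4 arrays, 18 (38.3%) read over 2-fold lower at number 2, against 7.85% of all 14381 so measured. There, 2 of the 47 read over 2-fold higher, as did 929 of the 14381. At number 3, 0 of the 47 read over 2-fold lower, against 1.27%, and 3 higher, as did 294 of the 14381. The median difference over the 50 genes was -0.44 at number 2 and 0.02 at number 3. For 22 of the 50 genes the sign differed between the numbers, as it did for 8409 of all 15054 tested genes. Whether the effect of genotype differs between the numbers could not be tested, because each number has 1 array per genotype. Among the 9 genes of the IL-1 family over 2-fold lower at number 2, Il1r2, Il18r1, Il1rn, Il1b and Il33 differed there by -2.74, -2.69, -2.05, -2.01 and -1.95, and at number 3 by -0.08, 0.49, 1.02, -0.77 and -0.21. The 9 include Il18rap, which was not well above background in KO 2. Among the genes over 2-fold lower at number 2 and well above background on all 4 arrays, Il1b and Il2rb were the ones whose difference at number 3 was also beyond -0.5, at -0.77 and -0.77.

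**Figure D3:**
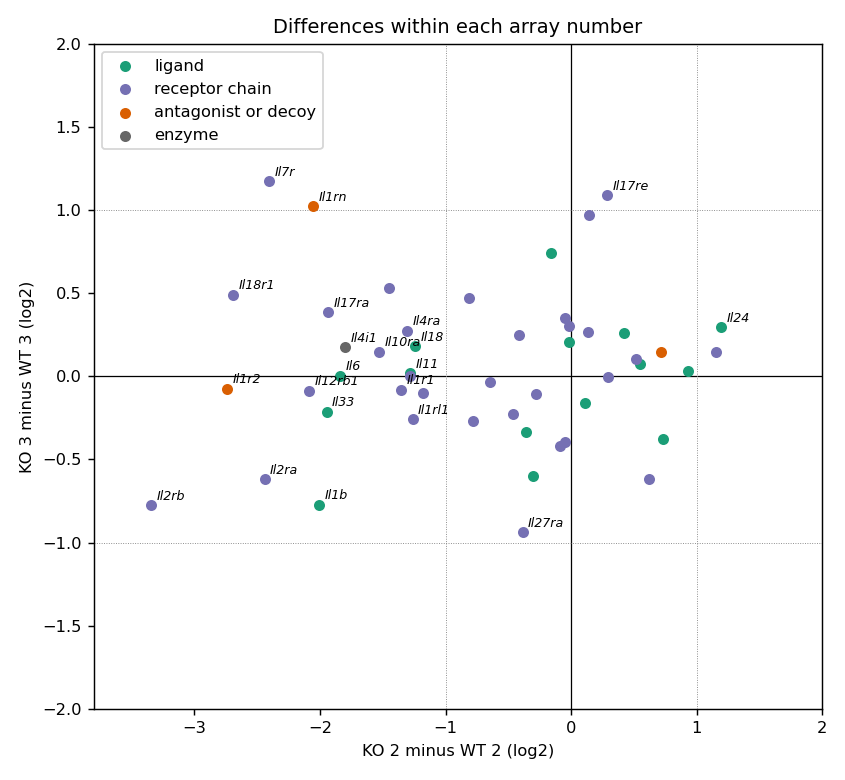
Difference KO 3 minus WT 3 (vertical axis, log2) against KO 2 minus WT 2 (horizontal axis, log2) for the 50 tested genes, coloured by role. The points spread far to the left and little up or down: 21 genes lie beyond -1 at number 2 and 0 at number 3, and Il7r and Il1rn lie past 1 upward at number 3 and past -2 at number 2. Among the 21, Il18rap, Il20ra and Il2ra were not well above background in KO 2.

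Markers of some of the cells that make and answer interleukins also set KO 2 apart. The 6 neutrophil markers on the array, among them S100a8, S100a9 and Csf3r, had a summed linear signal of 26.8 in WT 2, 33.6 in WT 3 and 34.04 in KO 3 but 4.93 in KO 2, where Cxcr2 was not well above background. The 7 T cell markers summed to 1.82 in WT 2, 1.44 in WT 3, 0.298 in KO 2 and 1.23 in KO 3, and in KO 2 Cd2 and Cd8a were not well above background. Of the T cell markers, Cd4 read higher in KO, by 0.18 at number 2 and 0.13 at number 3, and Cd3e differed by -0.32 and -0.18. On average the neutrophil markers differed by -2.69 at number 2 and 0.00 at number 3, the T cell markers by -2.28 and -0.11, the natural killer or innate lymphoid markers by -1.40 and -0.24 and the macrophage markers by -0.76 and 0.28. Of the natural killer or innate lymphoid markers, Ncr1, Gata3 and Prf1 were not well above background in KO 2, so their mean there includes signals at background. The summed linear signal of this list did not set KO 2 apart, at 1.53 in WT 2, 1.61 in WT 3, 1.54 in KO 2 and 1.4 in KO 3. Its marker Rora differed by 0.21 at number 2 and -0.18 at number 3. Among the macrophage markers, Cd163 went the other way, by 1.59 and 0.50. The cardiomyocyte markers went the other way, by 0.92 and -0.82. The B cell markers, of which Pax5 was below background on every array, differed by -0.77 and 1.49, lower at number 2 and higher at number 3. The dendritic markers, of which Cd209a was below background throughout, differed by -0.85 and -0.17, the fibroblast markers by -0.80 and -0.17, and the endothelial markers by 0.61 and -0.15. Among the dendritic markers, Xcr1 went the other way, by 0.32 and 0.29, and Zbtb46 differed by 0.14 and -0.24. The mast cell markers, of which Ms4a2 was below background throughout, differed by 0.35 and -0.10. The part of these cells in the interleukin differences was not tested.

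**Figure D4:**
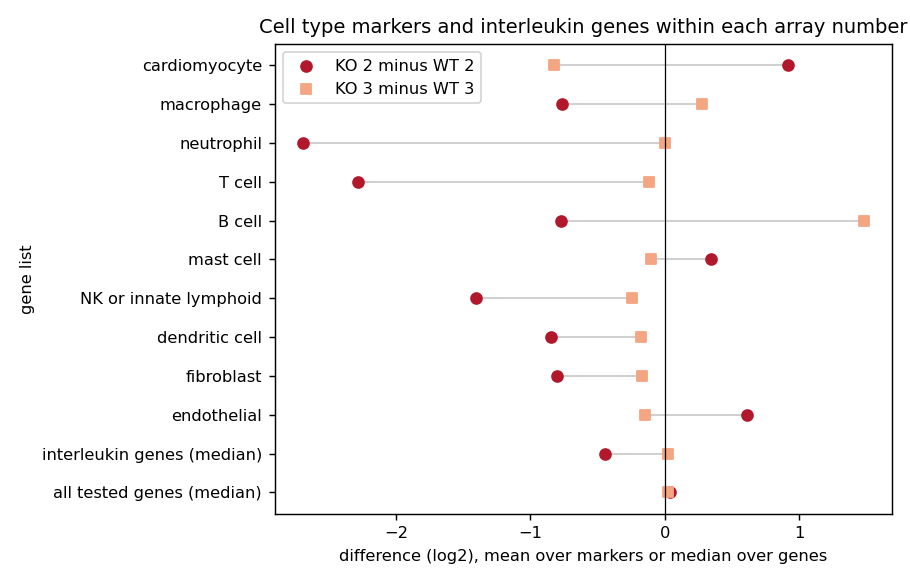
Mean difference of 10 lists of cell type markers, and median difference of the interleukin genes and of all tested genes, at number 2 (dark circles, KO 2 minus WT 2) and number 3 (light squares, KO 3 minus WT 3), in log2 units. Neutrophil and T cell markers lie beyond -2 at number 2 and near 0 at number 3, the interleukin median at -0.44 and 0.02, and cardiomyocyte markers at 0.92 and -0.82.

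Second probes give a check of these readings within the same arrays. Of the 17 genes with 2 or more tested probes, 14 had the same sign of the mean difference on all of them, and Il10rb, Il13ra1 and Il17rd did not. At number 2 the sign was shared by 15 of the 17 and at number 3 by 12. The second probe of Il1r2 read -3.69 in WT 2, -3.89 in WT 3, -7.19 in KO 2 and -4.89 in KO 3, below background in KO 2, so that both probes place KO 2 lowest. That of Il7r read -3.69, -4.94, -7.56 and -3.19 in the same order, which repeats the wide gap between the KO arrays. For Il1rl1, the brighter probe is annotated to transcript variant 1, which encodes the membrane receptor, and the second to variant 2, which encodes the soluble decoy form that circulates after heart injury. The second probe read -3.86 in WT 2, -4.76 in WT 3, -7.70 in KO 2, where it was not well above background, and -3.88 in KO 3. This probe thus set KO 2 far below the other arrays, with KO 3 level with WT 2, whereas on the membrane form's probe both KO arrays and WT 3 lay together. The remaining probe, annotated to variant 2 as well, was too dim for the test and gave the opposite order, at -5.92, -6.29, -5.06 and -5.97 in WT 2, WT 3, KO 2 and KO 3, with KO 2 the highest and the only array well above background. It starts at base 614 of its transcript, against base 2563 for the second probe. The 2 probes annotated to variant 2 therefore disagree, and whether either reads the soluble form alone was not determined.

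**Figure D5:**
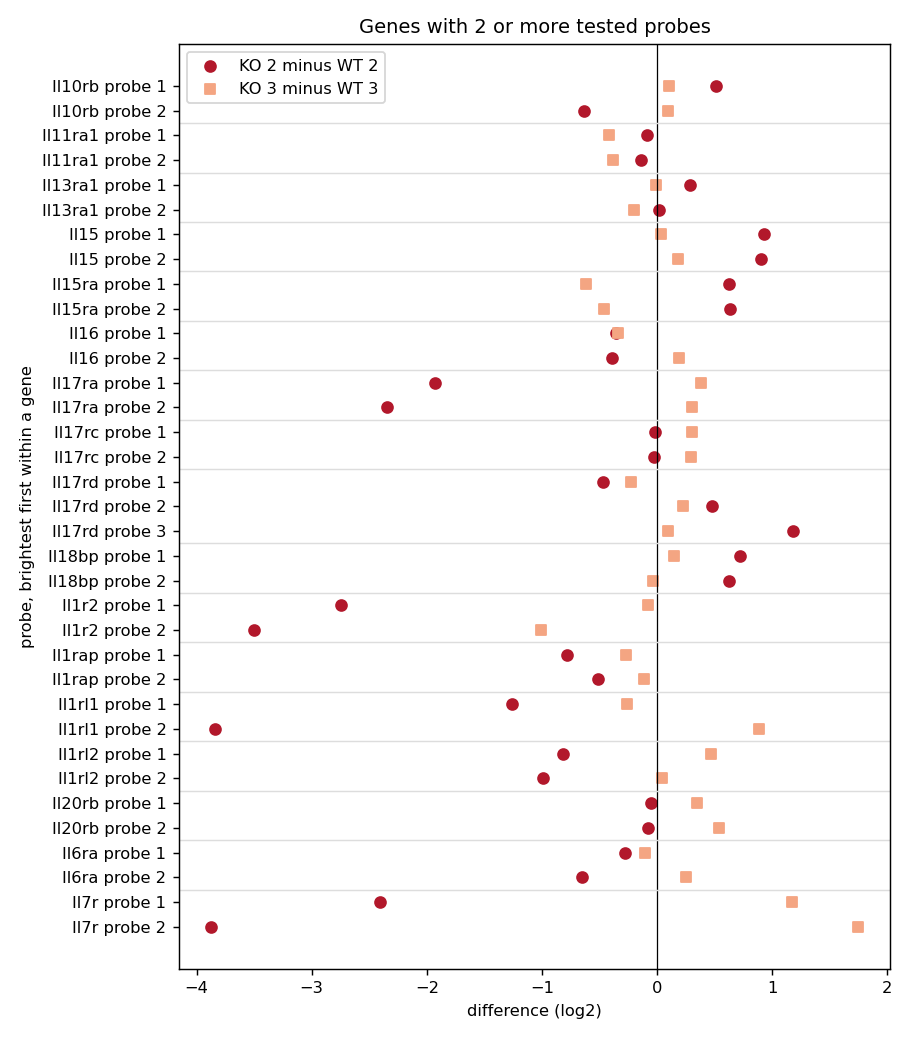
Difference at number 2 (dark circles) and number 3 (light squares) for every tested probe of the 17 genes with 2 or more, in log2 units, brightest probe first within a gene. Probes of Il1r2, Il7r and Il17ra all lie beyond -1.9 at number 2, while the probes of Il17rd lie on both sides of 0 and the 2 probes of Il1rl1 differ at number 3.

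ATF3 belongs to the bZIP family of factors, which bind AP-1 and CRE elements, so the DNA upstream of the interleukin genes was searched for these letters. The RefSeq table of build GRCm38.p6 held 79 windows of 250 bases upstream of a transcription start for 64 of the 81 genes. The AP-1 letters TGACTCA, or TGAGTCA on the other strand, stood in 12 of the 79 windows (15.19%), each of a different gene, against 4.46% of all 32851 windows. They were found at Il11, Il13ra2, Il15ra, Il16, Il17rb, Il1a, Il1f8, Il1rn, Il20ra, Il5ra, Il6 and Il9. The CRE letters TGACGTCA stood in 0 of the 79, against 1.55% of all windows. Only exact matches were counted, so near matches to these letters are left out. A TATA box, searched as TATAAA and its complement on the other strand, stood in 16.46% against 12.37%, and the STAT element TTCNNNGAA in 10.13% against 7.02%. None of these motifs contains another. A match is a description of the letters and not a site in use, and genes with several windows count more than once. Il6, Il11 and Il1rn are shown as the named genes with an AP-1 match, in 1 of the 2 windows of Il11 and 1 of the 3 of Il1rn, and Il1b as the inflammatory ligand whose window has a TATA match and no AP-1 match. The capitals mark the match, which begins 249 bases upstream of the start in Il6, 98 in Il11, 141 in Il1rn and, for the TATA letters, 31 in Il1b. The windows are chr5:30012864-30013113 on the plus strand (Il6), chr7:4778142-4778391 on the minus strand (Il11), chr2:24336610-24336859 on the plus strand (Il1rn) and chr2:129371140-129371389 on the minus strand (Il1b).
Il6: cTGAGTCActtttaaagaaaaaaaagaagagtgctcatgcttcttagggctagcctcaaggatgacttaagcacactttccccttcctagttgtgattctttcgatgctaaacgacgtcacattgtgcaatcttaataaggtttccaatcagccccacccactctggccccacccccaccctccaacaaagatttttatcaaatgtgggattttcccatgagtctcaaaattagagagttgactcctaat
Il11: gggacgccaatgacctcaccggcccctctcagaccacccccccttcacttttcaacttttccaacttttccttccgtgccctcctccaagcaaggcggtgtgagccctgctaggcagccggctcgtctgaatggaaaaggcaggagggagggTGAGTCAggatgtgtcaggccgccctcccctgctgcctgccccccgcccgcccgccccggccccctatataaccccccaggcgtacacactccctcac
Il1rn: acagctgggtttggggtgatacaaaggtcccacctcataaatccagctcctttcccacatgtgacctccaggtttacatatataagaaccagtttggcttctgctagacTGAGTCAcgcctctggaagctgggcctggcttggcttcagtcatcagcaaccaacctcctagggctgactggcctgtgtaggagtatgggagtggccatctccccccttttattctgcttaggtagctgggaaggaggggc
Il1b: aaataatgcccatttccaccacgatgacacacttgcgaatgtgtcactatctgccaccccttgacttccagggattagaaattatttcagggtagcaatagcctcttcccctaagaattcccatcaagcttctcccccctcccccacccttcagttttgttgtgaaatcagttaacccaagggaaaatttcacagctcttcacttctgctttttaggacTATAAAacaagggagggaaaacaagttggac

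Genes that carry interleukin signals under other names were listed as well: Janus kinases, STATs, SOCS proteins and phosphatases, the MyD88 to NF-κB arm, the inflammasome, and cytokine receptor chains. All 51 on the array were well above background on every array, and by limma 0 were called. Of the 51, 31 (60.78%, against 44.92% of all tested genes) read lower and 20 higher in KO, with a median difference of -0.10. By size, 1 read over 2-fold lower (1.96% against 2.34%), Stat4, and 0 higher. Without KO 2, 21 read lower, 0 over 2-fold lower and 1 over 2-fold higher. Stat4, the STAT downstream of the IL-12 receptor, read -1.78 in WT 2, -1.64 in WT 3, -4.18 in KO 2 and -1.75 in KO 3, so that KO 2 alone was low. The groups were apart with KO lower for 5 genes, Jak2, Socs1, Irak3, Csf2rb2 and Cntfr (9.8%), and with KO higher for 4, Stat3, Socs3, Tollip and Nlrp3 (7.84%), near or under the 8.88% and 13.3% of all tested genes. Jak2, a kinase of several cytokine receptors, read 1.33, 1.02, 0.75 and 0.61 in the order WT 2, WT 3, KO 2 and KO 3, a difference of -0.49 ± 0.24 (SE). Socs1, a feedback inhibitor, read 0.75, -0.06, -0.84 and -0.26, and Socs3, the inhibitor of gp130 signalling, read 2.82, 2.51, 3.01 and 2.88. At number 2, 9 of the 51 read over 2-fold lower (17.65% against 9.38%) and 1 higher (against 6.94%), and at number 3 there were 0 lower and 0 higher (against 1.77% and 2.56%). The 9 included Csf2rb, the beta chain of the IL-3, IL-5 and GM-CSF receptors, which differed by -1.93 at number 2 and 0.02 at number 3, and Ebi3, the IL-27 and IL-35 subunit, by -1.52 and -0.33. The median difference of the list was -0.28 at number 2 and -0.04 at number 3.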

How the data were processed

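RNA of 4 left ventricular samples was hybridised to Agilent one-colour whole mouse genome arrays. After scanning, the authors deposited the intensity of each spot, background-subtracted and detrended by Feature Extraction (10.7.3.1 per the file headers; 10.7 in the submitters' processing notes), with probe coordinates on mm9. A second table that the authors deposited, of log2 values made per the methods with GeneSpring, has a normalization not given in the sources used here. On every array 99.99% or more of its probe values lay within 0.05 of the quantile-normalized log2 signal after a constant shift, with a median of 6.78 in each column, so genes were not centred and the direction is that of the signal. It was used only as an alternative.

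Groups and numbers came from the sample titles. Flagged outlier spots (92 to 116 per array) were left out, spots of a probe were averaged, and the log2 of the 75th percentile over an array's non-control probes was subtracted from its log2 processed intensities. The test took in the 28304 probes well above background in a whole group, using limma 3.58.1 (lmFit and eBayes, R 4.3.3). P-values were adjusted over all of these by Benjamini-Hochberg, and a call needed an adjusted p under 0.05 with a more than 2-fold difference. The script was tested on simulated data. Over genes, 15054 with a RefSeq symbol were tested, each by its brightest probe. With 2 arrays a group, their number limits the precision.

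Symbols are those of the array design, and some are old. The member genes, marker lists and pathway list were chosen with earlier results of these data known. Named were genes well above background on all arrays whose groups did not overlap (the 12 largest differences), the next 6 by size, 19 genes followed in infarction, and genes measured in 1 group alone. Alternatives were normexp background correction (offset 50), quantile and median scaling, other filters, the authors' table, a replicate block for the array number, each array left out in turn, trended robust eBayes, the methods' t-test, and a gene's value as the mean of its tested probes. Promoter windows came from the RefSeq table of GRCm38.p6, on which no probe coordinate was used. A block for slide could not be fitted, since there was 1 slide.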

Additional observations from a re-analysis of the deposited data

Results flagged for a closer look

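Xist, outside the interleukin genes, gave a signal that the labels do not predict. All 4 samples are labelled male, yet the unscaled log2 signal of the brightest Xist probe was 14.132 in WT 2 and 13.2439 in KO 2, against 1.92 in WT 3 and 2.01 in KO 3 and a mean of 1.94 to 2.31 over the negative control probes of the 4 arrays. Ddx3y, on the Y chromosome, read 2.12 in WT 2, 11.88 in WT 3, 1.63 in KO 2 and 11.44 in KO 3. These arrays therefore divide by number and not by genotype, and the interleukin values within each number are the ones in which both arrays carry the same of these signals. The part of this split in the interleukin differences was not tested.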

How the results depend on the processing

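By limma, 0 interleukin genes and 0 pathway genes were called under every alternative run, and 0 probes in all. The count of interleukin genes with a fold change over 2 was 7, and 3 with normexp background correction, and 4 to 24 when an array was left out. For the pathway genes it was 1, then 0 with normexp, and 1 to 11 when an array was left out. The median difference of the interleukin genes lay between -0.66 (without KO 3) and 0.06 (without KO 2). The Kdm5b difference lay between -1.46 and -0.53 with 1 array left out. Of 251 values of the 28 named and tested genes under settings with 4 arrays, 248 kept their direction. The 3 that did not were Il17rd with the mean of all its probes (0.21), and Il2ra (0.041) and Il6ra (0.0771) with normexp. With 1 array left out, 15 of 112 values changed direction. Without KO 2 these were Il10ra (0.41), Il11 (0.0701), Il17ra (0.68), Il18 (0.49), Il18r1 (0.53), Il1r1 (0.0161), Il1rn (0.91), Il4ra (0.43), Il6 (0.20), Il6ra (0.29) and Il7r (1.68). Without WT 3 they were Il11ra1 (0.0028) and Il6ra (0.20), and for Il34 they were -0.21 without WT 2 and -0.32 without KO 3. The ranges over single arrays left out were -1.79 to 0.41 for Il10ra, -1.33 to 0.07 for Il11, -0.51 to 0.00 for Il11ra1, -2.23 to 0.68 for Il17ra, -1.55 to 0.49 for Il18, -2.73 to 0.53 for Il18r1, -1.45 to 0.02 for Il1r1, -1.94 to 0.91 for Il1rn, -0.32 to 0.52 for Il34, -1.46 to 0.43 for Il4ra, -2.03 to 0.20 for Il6, -0.68 to 0.29 for Il6ra and -2.91 to 1.68 for Il7r. For the other named genes the range kept its sign, at -2.51 to -0.30 for Il1r2, -3.16 to -0.95 for Il2rb, -1.86 to -0.30 for Il33, -1.70 to -0.47 for Il12rb1, -1.33 to -0.19 for Il1rl1, -1.10 to -0.22 for Il27ra, 0.18 to 1.31 for Il24 and 0.30 to 1.08 for Il17re, among others. Normexp shrank 12 of the named differences by over 1.5 times, and quantile normalization and the authors' values each enlarged 1, Il11ra1. The cause of these changes was not tested. Arrays of the same number deviated together (r = 0.57 across probes, which are not independent), but only 2 numbers exist and nothing states what they share. With the array number as a replicate block, 0 probes were called, 602 probes had an unadjusted p under 0.05 against 410 without it, and the counts of 7 and 1 genes over 2-fold stayed the same. Without KO 3, 24 of the 50 genes had an unadjusted limma p under 0.05, as did 7278 of 28304 probes, where KO 2 alone stands for its group and is assumed to vary like the WT arrays.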
